A study of Arabidopsis thaliana with 9 samples.

Results

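Strong and moderate induction of companion cells were compared in cultured Arabidopsis cotyledons, as 3 arrays labelled CC-S against 3 arrays labelled CC-M. The members of the comparison are the probe sets that name exactly 1 gene and whose log2 signal averages at least 4.07 over the 9 arrays of the series. They number 9761 of 38408 probe sets, or 25.4%, and stand for 9655 of the 16548 genes that have such a probe set at any signal. A further 6961 probe sets name 1 gene but fall below that minimum. The probe sets on either side of it were LURE1.5, with a mean log2 signal of 4.0705, and AT1G74300, with 4.0699. Their differences between CC-S and CC-M were -0.32 and -0.05 on the log2 scale.

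All 9 samples are wild-type Col-0 cotyledons of 6-day-old seedlings grown in liquid medium under continuous light. Per the labels, each was kept for 48 hours in VISUAL medium, which held the auxin 2,4-D at 1.25 mg/L, the cytokinin kinetin at 0.25 mg/L and bikinin at 10 µM. Bikinin inhibits GSK3-like kinases, which hold back brassinosteroid signalling. The samples then went into CC-induction medium and were collected at 96 hours. The labels name CC-S as strong induction, CC-M as moderate induction and VISUAL, the 3 remaining samples, as a culture without companion cell induction. The treatment text is worded alike for all 9 samples, and what set the CC-S, CC-M and VISUAL media apart is not recorded there. Separate cultures are not mentioned either, so that p-values measure the spread of the samples at hand, which may be technical. Total RNA of whole cultured cotyledons was measured, so more cells of a type and more RNA per cell cannot be told apart.

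Companion cells are the partners of sieve elements in the phloem. They arise from the division of a common mother cell, keep their nucleus and load sugars and signals into the sieve elements, which lose theirs. In Arabidopsis the sucrose exporter SWEET11 acts at the loading step, in phloem parenchyma next to the companion cells. In VISUAL cultures, mesophyll cells of the cotyledon are turned towards vascular stem cells and then towards xylem and phloem.

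The 9 arrays lay in the order of the labels on the main axis of variation over the 9761 members, which held 68.7% of the variance. There the CC-S samples of replicates 3, 4 and 5 scored 34.34, 32.95 and 18.75. The CC-M samples scored 14.88, 8.45 and 5.3, and the VISUAL samples lay between -41.53 and -33.26. The step from CC-M to CC-S on this axis was thus short beside that from VISUAL to CC-M. On the next axis, with 11.5% of the variance, CC-S scored 14.44, 12.28 and 0.23 and CC-M -3.65, -19.07 and -18.38. VISUAL scored 12.3, -1.09 and 2.94 there, so the CC-M samples lay below both other groups. CC-S replicate 5 and CC-M replicate 3 were the samples of the CC groups that lay next to each other. CC-S replicate 5 was the CC-S sample nearest to the CC-M mean at 41.7% of members, and CC-M replicate 3 the CC-M sample nearest to the CC-S mean at 48.0%. Of the genes recomputed for the text, 110 did not pass the adjusted test on all samples. Of these, 26 passed without CC-S replicate 5 and 1 without CC-M replicate 3, and their values without that sample are given with each. The fits of these genes with a different sample left out are not listed, so the values given show the favourable side. When any different sample was dropped, 0 or 1 members passed. A pass that depends on which sample is dropped was not counted as a call.

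Few members differed enough between strong and moderate induction to pass a test corrected over the whole array. The difference of each probe set, CC-S minus CC-M, was tested with limma on the log2 signals of all 9 arrays, with Benjamini-Hochberg adjustment over all 38408 probe sets, and an adjusted p under 0.05 was the threshold. At that threshold 3 members passed, or 0.0307% of members, against 8 of all probe sets (0.0208%). AT1G21326 and AT2G32880 rose from CC-M to CC-S, and EXO fell. That is 0.0205% higher and 0.0102% lower, against 0.00781% and 0.013% of all probe sets. The median difference over members was -0.0064, the 5th and 95th percentiles were -0.51 and 0.44, and 93.3% lay within 1.5-fold.

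Many members lay just past the threshold. A further 41 members had adjusted p-values between 0.0529 and 0.0532, and 194 members (1.99%, against 1.26% of all probe sets) were under 0.10. Of these 100 were higher and 94 lower in CC-S, or 1.02% and 0.963% of members against 0.596% and 0.664% of all probe sets. At an unadjusted p under 0.05 there were 1709 members, or 17.5% of members against 12.8% of all probe sets. They split into 851 higher and 858 lower, 8.72% and 8.79% of members against 6.32% and 6.53% of all probe sets. The values of CC-S and CC-M did not overlap at 2393 members, 24.5% against 18.1% of all probe sets. At 123 of these the difference was at least 2-fold, which is 1.26% of members and near the 1.29% of all probe sets. In CC-S 71 were higher and 52 lower, 0.727% and 0.533% against 0.64% and 0.651% of all probe sets. Another 44 members differed by at least 2-fold with overlapping values, which makes 1.71% of members against 1.78% of all probe sets.

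**Figure D1:**
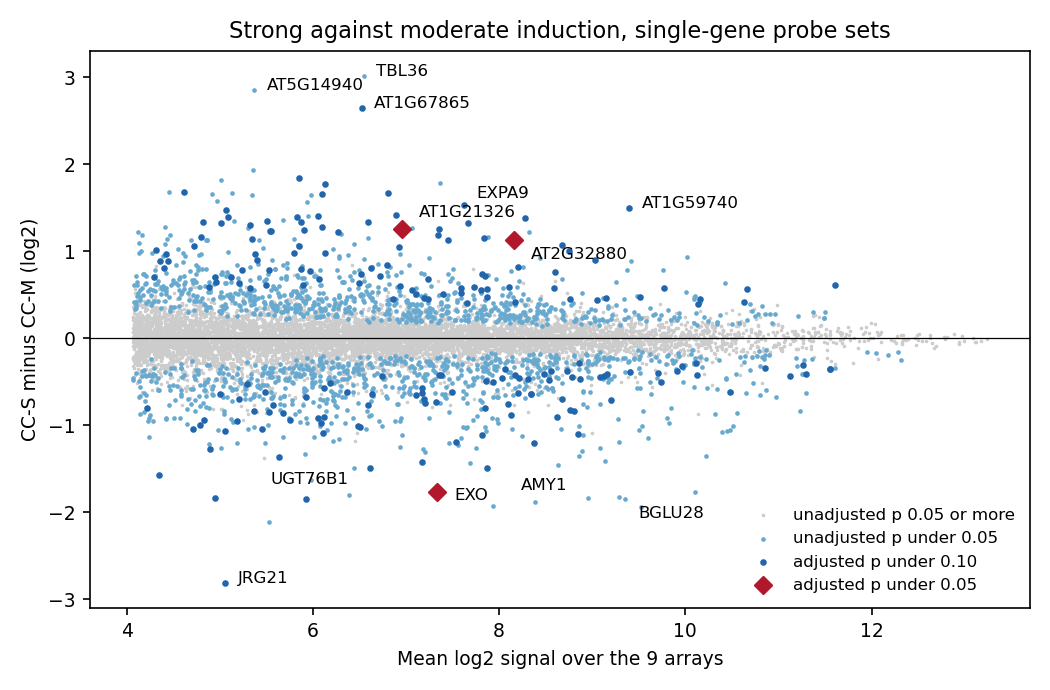
Each point is 1 of the 9761 member probe sets, with its mean log2 signal over the 9 arrays on the horizontal axis and its CC-S minus CC-M difference in log2 units on the vertical axis. The 3 members with an adjusted p under 0.05 are diamonds, and larger differences such as those of TBL36 (3.01) and JRG21 (-2.81) carry larger errors.

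The count of calls moved with the samples and with the probe sets tested. Without CC-S replicate 5, 137 members passed an adjusted p of 0.05 (1.4%), against 309 of all probe sets (0.805%). Of the 137, 57 were higher and 80 lower in CC-S, or 0.584% and 0.82% of members against 0.346% and 0.458% of all probe sets. Without CC-M replicate 3, 3 members passed, of which AT1G21326 was the 1 shared with the fit on all samples; the others, named after their values were seen, were AT2G38240 and AT2G43140. Leaving out any of the other 7 samples gave 0 or 1 calls. With the 15335 probe sets below the minimum signal left out of the test, 129 members passed (1.32%), against 310 of the 23073 probe sets tested (1.34%). Of the 129, 66 were higher and 63 lower, or 0.676% and 0.645% against 0.585% and 0.758%. The 137 and the 129 shared 62 members, which is 45.3% of the former and 48.1% of the latter, and both held all 3 members called over the whole array. A fit of the 6 CC-S and CC-M arrays alone also gave 3 calls, but they were AT1G67860, AT3G16660 and AT5G06570, again named after their values were seen, and EXO, AT1G21326 and AT2G32880 each had an adjusted p of 0.0753. For the differences, CC-S replicate 5 was the CC-S sample nearest to CC-M at 78.0% of the 123 members, and CC-M replicate 3 the CC-M sample nearest to CC-S at 82.1%.

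**Figure D2:**
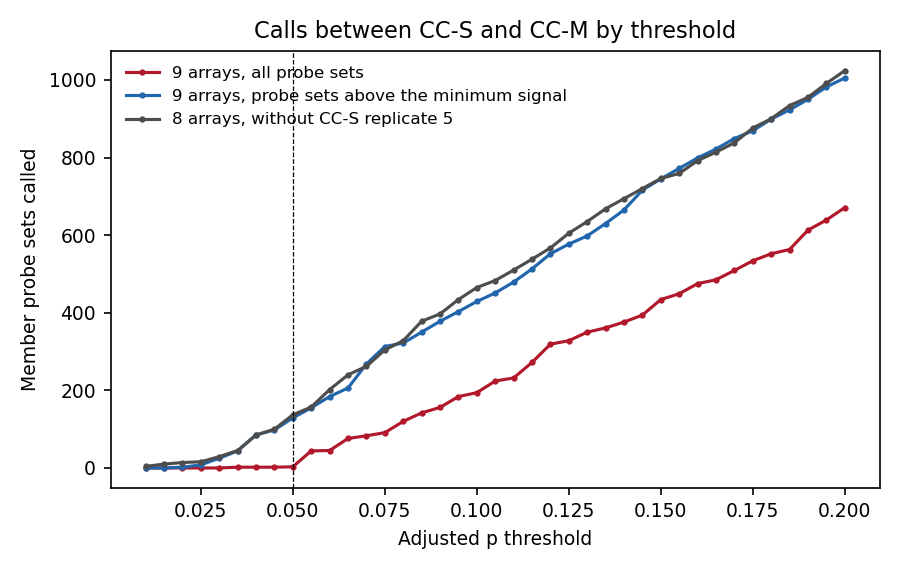
The vertical axis counts the member probe sets under each adjusted p threshold on the horizontal axis, for all 38408 probe sets on 9 arrays, for the 23073 probe sets above the minimum signal on 9 arrays, and for 8 arrays without CC-S replicate 5. At the dashed line, a threshold of 0.05, the counts are 3, 129 and 137.

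EXO, or EXORDIUM, is a brassinosteroid-induced gene for an extracellular protein that promotes cell expansion in leaves. Its log2 signals were 6.25, 5.68 and 6.40 in CC-S, 7.87, 8.0 and 7.77 in CC-M and 8.03, 8.17 and 7.87 in VISUAL. The 3 CC-S samples lay far below all others, and CC-M overlapped VISUAL. EXO fell from CC-M to CC-S by 1.77 on the log2 scale (SE 0.178, 3 samples a group, adjusted p = 0.0472 by limma), a 3.4-fold decrease with a 95% interval from -2.17 to -1.36 on the log2 scale. The difference between CC-M and VISUAL was -0.15 with an adjusted p of 0.703.

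AT1G21326 had log2 signals of 8.14, 8.41 and 8.04 in CC-S, 7.02, 6.99 and 6.83 in CC-M and 5.71, 5.72 and 5.76 in VISUAL. The groups formed 3 separate levels with little spread within each. AT1G21326 rose by 1.25 from CC-M to CC-S (SE 0.107, adjusted p = 0.0346), a 2.38-fold increase, and the step from VISUAL to CC-M was 1.22. The CC-M samples enter both steps. AT2G32880 also formed 3 levels, with log2 signals of 9.36, 9.19 and 9.28 in CC-S, 8.17, 7.95 and 8.32 in CC-M and 7.08, 7.02 and 7.07 in VISUAL. It rose by 1.13 from CC-M to CC-S (SE 0.10, adjusted p = 0.0346), or 2.19-fold, and its step from VISUAL to CC-M was 1.09. No role is given in the annotation used here for AT1G21326 or AT2G32880.

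These 3 calls lay close to the threshold and were lost in most fits with 1 sample fewer. Without any 1 of the VISUAL samples the differences stayed at -1.77 for EXO, 1.25 for AT1G21326 and 1.13 for AT2G32880. Their adjusted p-values in limma were then between 0.0552 and 0.0805. When each of the 9 samples was left out in turn, the difference of EXO ranged from -1.91 to -1.55, that of AT1G21326 from 1.15 to 1.33 and that of AT2G32880 from 1.03 to 1.22. EXO passed in 1 of these 9 fits, AT1G21326 in 2 and AT2G32880 in 1. The fit without CC-S replicate 5 was among them for all 3, with adjusted p-values of 0.0111, 0.0095 and 0.0185. Without CC-M replicate 3 the adjusted p-values were 0.0509, 0.0465 and 0.0509. The highest were 0.209, 0.209 and 0.152, reached for EXO and AT1G21326 without CC-M replicate 4 and for AT2G32880 without CC-S replicate 4. With the VISUAL arrays left out altogether, none of these 3 genes passed, as given above.

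The 15 largest positive differences without overlap ran from 1.64 to 3.01, and the 15 largest negative ones from -2.81 to -1.42. All 30 had an unadjusted p under 0.05, since that was part of the choice. EXO alone of the 30 passed the adjusted test, 14 had an adjusted p under 0.10, and 14 passed without CC-S replicate 5. In 24 of the 30, CC-S replicate 5 was the CC-S sample nearest to CC-M, and in 24 CC-M replicate 3 was the CC-M sample nearest to CC-S. Of the 30 genes, 21 are known here by a locus number alone.

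TBL36, a member of a plant family whose characterised enzymes add acetyl groups to cell wall polysaccharides, had the largest positive difference. Signals on the log2 scale were 8.79, 8.84 and 7.25 in CC-S, 6.91, 4.35 and 4.58 in CC-M and 7.09, 5.51 and 5.63 in VISUAL. Every CC-S sample lay above every other sample, while CC-M overlapped VISUAL and replicate 3 was the highest sample of CC-M and of VISUAL. The difference was 3.01 (SE 0.747, adjusted p = 0.132), or 8.06-fold with a 95% interval from 1.31 to 4.71 on the log2 scale. Of its relatives, TBL24 gave 0.42 and TBL33 gave -0.55, neither called.

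AT1G67865 gave log2 signals of 8.18, 9.03 and 7.66 in CC-S, 6.03, 5.38 and 5.54 in CC-M and 5.46, 6.02 and 5.42 in VISUAL. It was high in CC-S alone, and CC-M lay at the level of VISUAL. The difference was 2.64 (SE 0.338, adjusted p = 0.0529), and the difference between CC-M and VISUAL was 0.01. The next gene along the chromosome on each side was also higher in CC-S, AT1G67860 by 1.15 (adjusted p = 0.0532) and AT1G67870 by 1.67 (adjusted p = 0.0742). Without CC-S replicate 5 the adjusted p-values of AT1G67865, AT1G67860 and AT1G67870 were 0.0185, 0.0467 and 0.0475. AT1G67860 already stood well above VISUAL in CC-M, with means of 9.28, 8.13 and 6.09 in CC-S, CC-M and VISUAL, while AT1G67870 did not, with 7.88, 6.22 and 6.31.

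Such neighbours were found again around one of the called genes. AT2G32870, next to AT2G32880, differed by 1.67 (adjusted p = 0.115), and AT2G44280 and AT2G44290, next to each other, by -1.18 and -1.16 (adjusted p = 0.116 and 0.147). Among the 122 genes that differed at least 2-fold without overlap there were 4 pairs of adjacent genes, and in all 4 both genes differed in the same direction. How far the probes of adjacent genes read one another's transcripts was not tested.

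The other positive differences of this set fell into 3 patterns across the groups. AT4G08780 had 3 levels in the order of the labels, with means of 7.04 in CC-S, 5.22 in CC-M and 2.77 in VISUAL, and AT2G17740 likewise with 7.46, 5.81 and 4.67, as did AT5G56100 with 6.18, 4.49 and 3.17. Their CC-S minus CC-M differences were 1.81, 1.65 and 1.68 (adjusted p = 0.126, 0.111 and 0.0532). AT5G14940, AT1G33700, AT4G36430, AT1G49470 and AT3G21770 were near the VISUAL level in CC-M, with CC-S minus CC-M differences of 2.85, 1.93, 1.84, 1.68 and 1.66. The CC-M and VISUAL means of AT1G49470, 3.87 and 3.95, lay below the minimum signal, so that it is a member through CC-S. The VISUAL means of AT4G08780 and AT5G56100 lay below the minimum as well. Without CC-S replicate 5, AT5G56100 had an adjusted p of 0.0387 and AT3G21770 one of 0.0475, where it was 0.124 with all samples. AT3G27400 and AT3G53190 had their lowest level in CC-M.

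AT3G27400 shows that last pattern sample by sample. Its log2 signals were 7.22, 6.71 and 6.03 in CC-S, 5.32, 5.03 and 4.63 in CC-M and 6.62, 6.63 and 6.71 in VISUAL, so the CC-M samples lay below both other groups and CC-S overlapped VISUAL. The difference was 1.66 (adjusted p = 0.0648). AT3G53190 had means of 6.99, 5.21 and 6.20 in the same order and a difference of 1.78 (SE 0.228, adjusted p = 0.0529). The adjusted p without CC-S replicate 5 was 0.0233 for AT3G27400 and 0.0129 for AT3G53190. The subtilisin-like protease gene ATSBT5.2 rounded off the 15, with means of 6.78, 5.14 and 4.12 and a difference of 1.64 (adjusted p = 0.141).

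**Figure D3:**
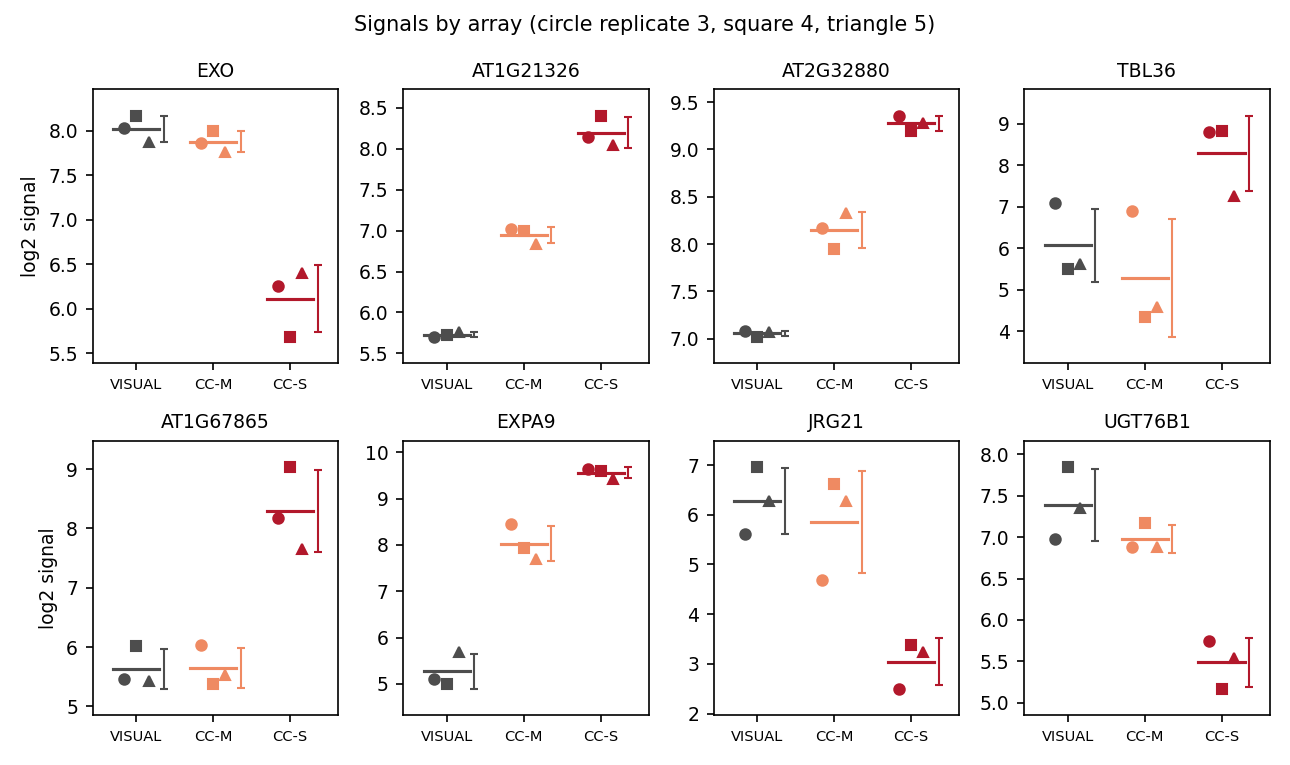
Each panel gives the log2 signal of 1 gene in the 9 samples, by group, with the group mean as a horizontal line and the SD of 3 samples as the bar beside it; the vertical axes differ and do not start at 0. In all 8 panels the CC-S samples lie apart from the CC-M samples, with EXO, AT1G67865 and UGT76B1 in CC-M near their VISUAL level and AT1G21326, AT2G32880 and EXPA9 between VISUAL and CC-S.

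On the lower side, JRG21 stood out. JRG21 is a jasmonate-regulated gene for an oxygenase that inactivates jasmonic acid. Its log2 signals were 2.5, 3.39 and 3.25 in CC-S, 4.68, 6.61 and 6.27 in CC-M and 5.62, 6.95 and 6.27 in VISUAL. The CC-S samples lay below all others and below the minimum signal, replicate 3 was the lowest of each group, and CC-M overlapped VISUAL. The difference was -2.81 (SE 0.526, adjusted p = 0.0782), with a 95% interval from -4.01 to -1.61.

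AT2G38240 was the other way round from the genes that were lowest in CC-M. Its log2 signals were 5.07, 5.02 and 4.48 in CC-S, 5.70, 7.75 and 7.45 in CC-M and 4.72, 5.03 and 4.6 in VISUAL, so CC-M alone was high. The difference was -2.11 (adjusted p = 0.111), and without CC-M replicate 3 it was -2.74 (adjusted p = 0.0330). AT1G44130, AT3G63050, AT2G21640 and AT4G12735 were highest in VISUAL, intermediate in CC-M and lowest in CC-S, with differences of -1.88, -1.77, -1.49 and -1.42. AT1G26762, AT4G01140 and AT2G31425 were near the VISUAL level in CC-M, with -1.85, -1.84 and -1.57. The CC-S means of AT4G01140 and AT2G31425, 3.72 and 3.19, lay below the minimum signal, so that both are members through the other groups. Of these 7 genes AT4G12735 and AT1G26762 came nearest to the threshold, both with an adjusted p of 0.0532. Leaving out CC-S replicate 5, the adjusted p of AT1G44130 fell from 0.111 to 0.00138, that of AT3G63050 from 0.122 to 0.0111 and that of AT2G21640 from 0.0648 to 0.0095. It was then 0.0111 for AT4G12735, 0.0486 for AT1G26762 and 0.0387 for AT4G01140.

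AMY1, an alpha-amylase that breaks down starch, was widely spread within its groups. Its log2 signals were 8.18, 7.69 and 8.36 in CC-S, 9.18, 10.45 and 10.14 in CC-M and 7.74, 9.73 and 9.09 in VISUAL. CC-S lay below CC-M in every sample, and VISUAL overlapped both. The difference was -1.84 (SE 0.498, adjusted p = 0.159).

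The 16 gene lists used here hold 655 entries, of which 61 were matched to members by symbol or locus. The platform annotation pairs few genes that have a symbol with a probe set of their own. Counts by list are therefore given against all members, of which 8.72% were higher and 8.79% lower at an unadjusted p under 0.05. None of the counts below passed the adjusted test unless that is said. EXO was the only member of the 16 lists with an adjusted p under 0.05 in limma, against 21 at an unadjusted p under 0.05. The counts of 61 and 21 leave out AT3G12730, the locus of the list entry SAPL, which was not matched by symbol. Families such as the peroxidases and NPF were matched by symbol or synonym, so genes known by locus number alone may be missing from them.

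Of the cell wall and brassinosteroid list, 9 of 53 entries are members, 3 higher and 3 lower at an unadjusted p under 0.05, with EXO among the lower. The median difference was 0.006, beside -0.0064 over all members. EXPA9, an expansin, is one of the proteins that loosen cell walls without cutting their polymers. Log2 signals were 9.65, 9.60 and 9.43 in CC-S, 8.45, 7.92 and 7.70 in CC-M and 5.11, 5.00 and 5.69 in VISUAL. The 3 groups did not overlap, and the difference was 1.53 (SE 0.223, adjusted p = 0.0532), beside 2.76 from VISUAL to CC-M. Without CC-S replicate 5 the adjusted p was 0.0475. The brassinosteroid receptor BRL1, which is known from vascular cells, differed by 0.30 (adjusted p = 0.205).

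Among 14 expansin and expansin-like members, 3 were higher and 1 lower at an unadjusted p under 0.05, with a median of 0.13. EXPA4 shared the low CC-M level of AT3G27400. Its log2 signals were 6.64, 6.19 and 5.34 in CC-S, 5.18, 4.3 and 4.62 in CC-M and 6.39, 6.03 and 6.47 in VISUAL, and the difference was 1.36 (adjusted p = 0.132; without CC-S replicate 5, 1.71 with an adjusted p of 0.0475). EXPA16 differed by 0.49 (adjusted p = 0.275), with CC-M and VISUAL means of 4.02 and 3.99 below the minimum signal. EXLA1, an expansin-like gene, went the other way with log2 signals of 6.72, 6.75 and 6.89 in CC-S, 7.78, 8.15 and 8.01 in CC-M and 7.51, 8.07 and 7.97 in VISUAL. CC-S was low against both other groups, as for EXO, and the difference was -1.19 (SE 0.155, adjusted p = 0.0532; without CC-S replicate 5, 0.0387).

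The XTH genes encode enzymes that cut and rejoin xyloglucan chains of the wall. Of 6 members 0 were higher and 2 lower at an unadjusted p under 0.05, with a median of -0.24. XTH18 differed by -0.60 (adjusted p = 0.289) and EXGT-A3 by -0.23 (adjusted p = 0.385). GH9C2, an endoglucanase-type enzyme of glycosyl hydrolase family 9, was another gene lowest in CC-M, with means of 7.47 in CC-S, 6.20 in CC-M and 7.52 in VISUAL and a difference of 1.26 (adjusted p = 0.112; without CC-S replicate 5, 0.0307).

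Genes of DNA replication were on the higher side in CC-S, on few members. Of 74 entries 5 are members, 3 of them higher and 0 lower at an unadjusted p under 0.05, and the median was 0.54 beside -0.0064 over all members. PRL encodes MCM7, a subunit of the replicative helicase, and ICU2 the catalytic subunit of DNA polymerase alpha. PRL had log2 signals of 5.91, 5.61 and 5.2 in CC-S, 4.81, 4.92 and 4.80 in CC-M and 4.44, 4.69 and 4.87 in VISUAL. CC-S lay above both other groups, replicate 5 least so, and the difference was 0.73 (SE 0.190, adjusted p = 0.146). ICU2 differed by 0.74 (adjusted p = 0.192) and the primase subunit gene POLA3 by 0.54 (adjusted p = 0.290). The VISUAL mean of POLA3, 3.99, lay below the minimum signal. The polymerase delta subunit gene POLD3 differed by 0.10, and the remaining member had the lowest difference, -0.019.

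Mitosis and cytokinesis divide the replicated chromosomes and the cell. Of 93 entries 9 are members, 2 higher and 0 lower at an unadjusted p under 0.05, with 8 of 9 above 0 and a median of 0.33. HTR12, the centromeric histone, had log2 signals of 5.25, 5.33 and 5.15 in CC-S, 4.73, 4.69 and 4.88 in CC-M and 4.98, 5.16 and 5.17 in VISUAL. CC-M was thus the low group, and CC-S overlapped VISUAL. The differences were 0.48 for HTR12 (adjusted p = 0.119) and 0.48 for the mitotic kinase gene AUR3 (adjusted p = 0.279). The kinase gene AUR1 (0.72) and the spindle checkpoint genes BUBR1 (0.45) and BUB3.1 (0.33) overlapped between CC-S and CC-M.

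SIM, an inhibitor of cyclin-dependent kinases that moves cells from division to endoreduplication, is the 1 member among 31 entries on cell cycle inhibitors and G1 regulators. Log2 signals were 6.85, 7.18 and 7.24 in CC-S, 6.45, 6.45 and 6.47 in CC-M and 5.86, 5.89 and 6.10 in VISUAL. The groups formed 3 levels, and the difference was 0.63 (SE 0.122, adjusted p = 0.0812). The members of the core histone family numbered 4, of which HTR12 was the 1 higher at an unadjusted p under 0.05.

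**Figure D4:**
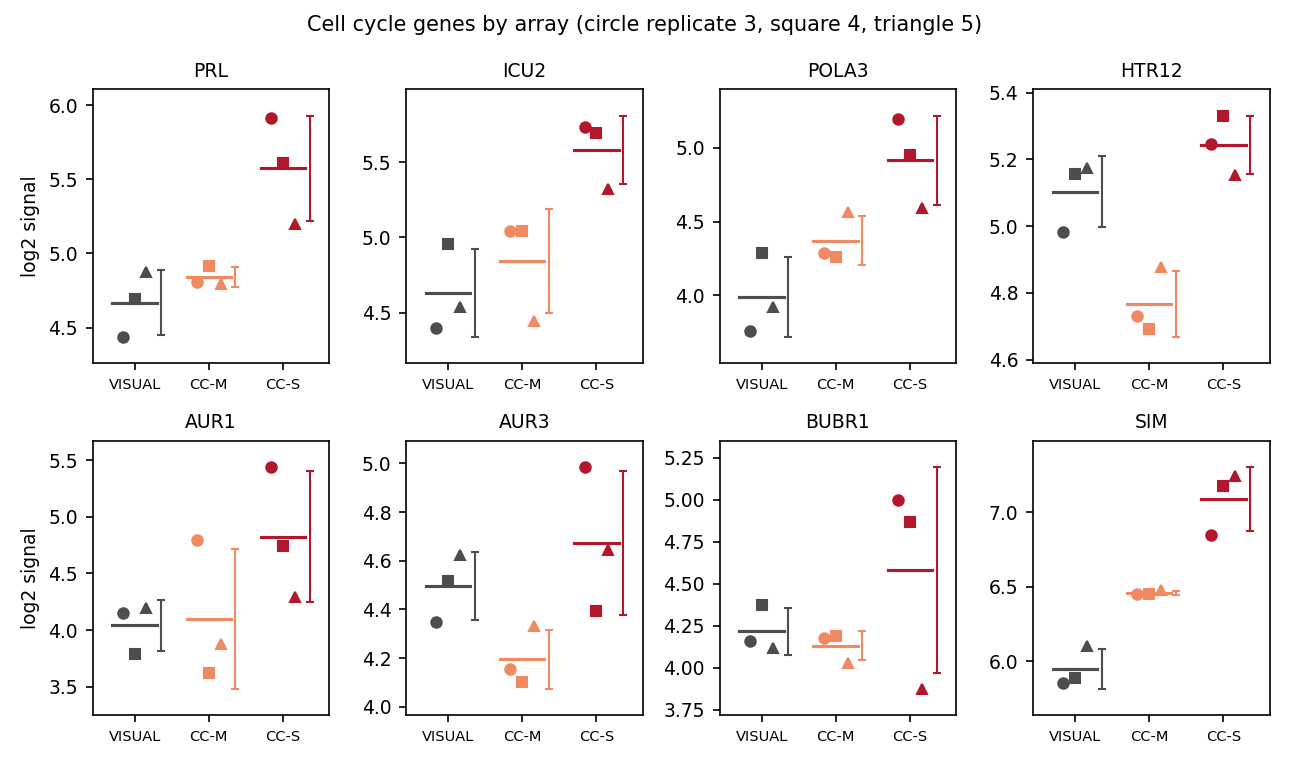
Each panel gives the log2 signal of 1 gene of DNA replication, mitosis or cell cycle inhibition in the 9 samples, with the group mean as a line and the SD of 3 samples as the bar; the vertical axes differ and do not start at 0. CC-S lies above CC-M without overlap for PRL, ICU2, POLA3, HTR12, AUR3 and SIM, while AUR1 and BUBR1 overlap.

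The vascular lists were thinly measured. SWEET11 was the 1 member matched by symbol among 28 entries on companion cells and phloem loading. The entry SAPL, locus AT3G12730, was also a member, but it was not matched by symbol and is given below. In CC-S the log2 signals of SWEET11 were 10.4, 10.7 and 9.88, against 9.99, 8.99 and 8.95 in CC-M and 7.22, 9.10 and 7.66 in VISUAL. CC-S replicate 5 lay below CC-M replicate 3, and one VISUAL sample lay within CC-M. The difference was 1.02 (SE 0.484, adjusted p = 0.434), with a 95% interval from -0.08 to 2.12, which takes in 0.

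AT3G12730 is the companion cell list entry SAPL, which the annotation used here leaves without a symbol. Its log2 signals were 8.42, 8.86 and 8.43 in CC-S, 7.99, 7.43 and 7.52 in CC-M and 4.87, 5.66 and 6.04 in VISUAL. The 3 groups did not overlap, and the difference was 0.92 (SE 0.286, adjusted p = 0.210), beside 2.12 from VISUAL to CC-M. The phloem gene OPS, which promotes sieve element formation, differed by 0.39 (adjusted p = 0.300), and LHW, a regulator of vascular cell divisions, by 0.40 (adjusted p = 0.247). The secondary wall gene IRX15 had means of 4.67, 5.07 and 6.58 in CC-S, CC-M and VISUAL. All 3 members of the xylem list were lower in CC-S than in CC-M, with 0 at an unadjusted p under 0.05 in limma and a median of -0.225.

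Sugar transporters of the SWEET family had 7 members, 2 higher and 0 lower at an unadjusted p under 0.05, with a median of 0.42. SWEET16, a transporter of the vacuole membrane, differed by 0.58 (adjusted p = 0.323), with CC-M again lowest at a mean of 4.0, under the minimum signal, beside 4.58 in CC-S and 4.70 in VISUAL. SWEET1 differed by 0.43 (adjusted p = 0.341) and SWEET4 by -0.44 (adjusted p = 0.526).

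Of the auxin list 5 of 44 entries are members, 2 higher and 0 lower at an unadjusted p under 0.05. LBD16, an auxin-induced transcription factor of lateral root initiation, had log2 signals of 6.89, 7.32 and 6.23 in CC-S, 6.24, 5.79 and 5.87 in CC-M and 3.5, 3.46 and 3.38 in VISUAL. CC-S replicate 5 and CC-M replicate 3 gave nearly the same value, and all 6 samples were far above VISUAL. The difference was 0.85 (SE 0.252, adjusted p = 0.192), and without CC-S replicate 5 it was 1.14 (adjusted p = 0.0475). IAA29, an auxin signalling repressor, differed by 0.67 (adjusted p = 0.270). Of the cytokinin list 2 of 35 entries are members, both response regulators and 0 of them at an unadjusted p under 0.05 in limma. ARR15 had means of 3.47, under the minimum signal, 4.16 and 6.42 in CC-S, CC-M and VISUAL, a CC-S minus CC-M difference of -0.68 (adjusted p = 0.483). RR16 had means of 10.29, 10.12 and 9.44 and a difference of 0.17 (adjusted p = 0.761).

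The class III peroxidases oxidise phenolic compounds of the wall. Of 5 members matched by symbol or synonym 3 were higher and 1 lower at an unadjusted p under 0.05, with a median of 0.82. Peroxidase genes known by locus number alone are not in this count. Prx37 had log2 signals of 10.3, 10.2 and 8.94 in CC-S, 8.98, 7.69 and 7.38 in CC-M and 3.87, 4.25 and 4.73 in VISUAL. CC-S replicate 5 met CC-M replicate 3, and the difference of 1.79 (SE 0.480, adjusted p = 0.157) lay beside 3.73 from VISUAL to CC-M. AT5G64120 and AT2G41480 differed by 0.82 and 0.84 (adjusted p = 0.205 and 0.259), and AT5G66390 by -1.35 (adjusted p = 0.274).

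The NPF family carries nitrate, peptides, hormones and glucosinolates across membranes. Of 9 members matched by symbol or synonym 3 were higher and 2 lower at an unadjusted p under 0.05. AT1G59740 gave log2 signals of 11.5, 10.9 and 10.3 in CC-S, 9.82, 9.21 and 9.18 in CC-M and 8.25, 7.57 and 7.80 in VISUAL, in 3 levels without overlap. Its difference was 1.5 (SE 0.310, adjusted p = 0.0918; without CC-S replicate 5, 0.0428). GTR2, a glucosinolate transporter, differed by 0.45 (adjusted p = 0.115) with little spread, at means of 10.9, 10.4 and 9.01. AT1G72120 differed by -1.05 (adjusted p = 0.141).

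The UGT family attaches sugars to small molecules such as hormones and phenolics. It had 32 members, 2 higher and 6 lower at an unadjusted p under 0.05, or 6.25% and 18.8%, with a median of 0.01. UGT76B1, which conjugates salicylic acid and isoleucic acid, had log2 signals of 5.75, 5.17 and 5.54 in CC-S, 6.88, 7.17 and 6.88 in CC-M and 6.98, 7.84 and 7.35 in VISUAL. CC-S lay below both other groups, and the difference was -1.49 (SE 0.227, adjusted p = 0.0532). UGT76E12 differed by -1.62 (adjusted p = 0.186), but a weaker probe set of the same gene gave 0.21, and UGT76E11 differed by -0.95 (adjusted p = 0.279). UGT72E1, which glucosylates lignin precursors, was higher in CC-S than in CC-M by 0.57 (adjusted p = 0.0753), at the level of VISUAL.

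Photosynthesis genes mark the mesophyll, the main tissue of the cotyledon. Of this list 12 members were measured, 0 higher and 3 lower at an unadjusted p under 0.05, with a median of -0.11. The photosystem subunit genes PSAE-1, PSBY and PSBW differed by -0.35, -0.25 and -0.22 (adjusted p = 0.192, 0.261 and 0.247). The 63 members encoded by the plastid genome had a median of 0.04 and 0 at an unadjusted p under 0.05 in limma. WRKY47, a transcription factor, differed by 0.57 (SE 0.080, adjusted p = 0.0532; without CC-S replicate 5, 0.0387), with means of 10.2 in CC-S, 9.59 in CC-M and 9.57 in VISUAL. The WRKY family had 6 members, 2 higher and 1 lower at an unadjusted p under 0.05 in limma. Of these 6 members 4 were below 0, with a median of -0.14. Of 12 cytochrome P450 members 0 differed at an unadjusted p under 0.05 in limma, with a median of 0.045.

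As markers of other cell types in the cotyledon, the guard cell lineage genes FMA and SPCH, the 2 members among 16 entries, differed by -0.35 and 0.28 (adjusted p = 0.376 and 0.496). Their part in the results above was not tested, nor was that of the photosynthesis genes.

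**Figure D5:**
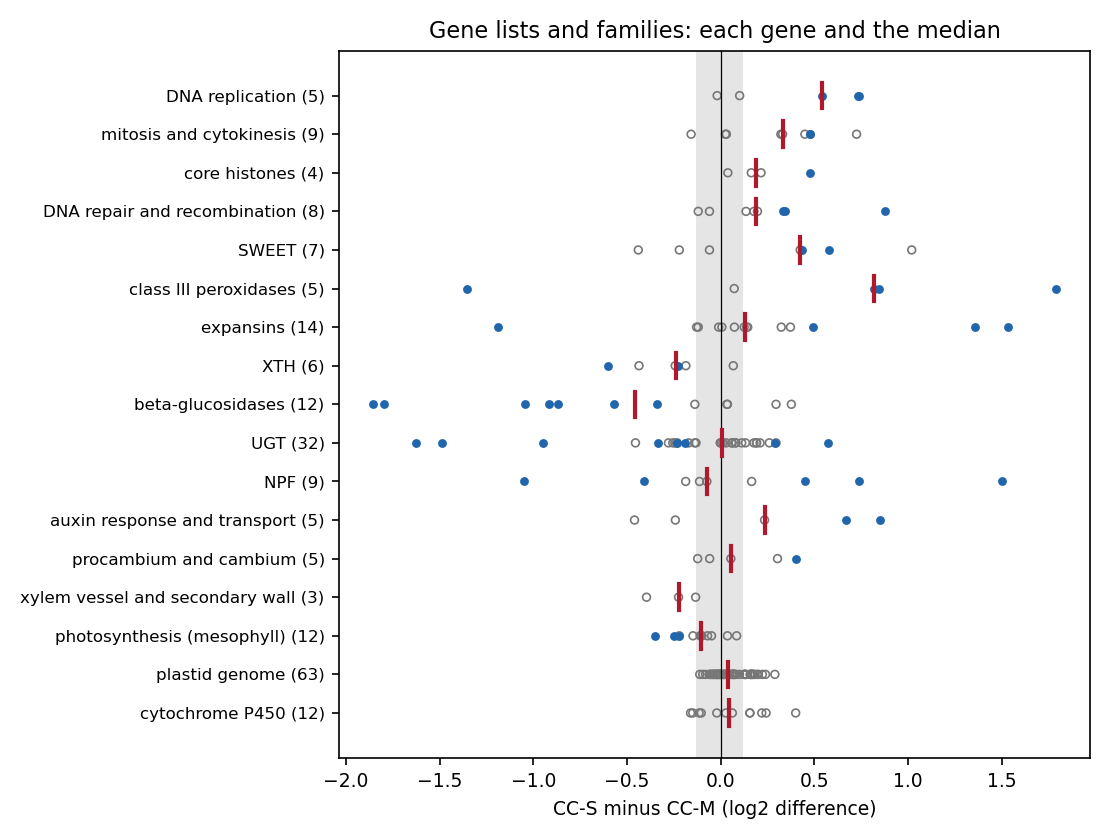
Each circle is 1 member gene of the list named at the left, with the number of members in brackets, at its CC-S minus CC-M difference in log2 units; filled circles have an unadjusted p under 0.05, red bars are list medians, and the grey band is the interquartile range of all members. Only some of the lists and families are shown, and several not shown had medians as high or as low. Among those shown, the highest medians are those of peroxidases (0.82), DNA replication (0.54), SWEET (0.42), mitosis (0.33) and the auxin list (0.23). The lowest among those shown are those of beta-glucosidases (-0.46), XTH (-0.24) and the xylem list (-0.225). The beta-glucosidases, DNA repair and the plastid genome were added after values were seen.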

How the data were processed

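Total RNA of 9 samples was hybridised to one-colour Affymetrix arrays after biotin labelling, per the labels' protocols. The table the authors deposited gives a log2 signal for each of 38408 probe sets and was made with Affymetrix Expression Console per the submitters' processing notes, with no version or summary method stated there. The values were used as deposited. Arrays give no read depth, and their number limits the precision: the median SE of a member's difference was 0.130 on the log2 scale, and its 95% interval reached 0.296 to either side at the median. Detection calls were not used here.

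Probe sets were named from the platform annotation with symbols of a TAIR10.1 gene table, which matched 16574 of 16722 probe sets that name 1 gene; 759 name several genes and 20927 are unnamed. No coordinates or sequences are given. Where 89 genes had several member probe sets, the brightest stood for the gene.

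limma 3.58.1 in R 4.3.3 fitted group means over all 9 arrays with a trend of variance on intensity, and the CC-S minus CC-M contrast was adjusted over the 38408 probe sets by Benjamini-Hochberg. The script was tested on simulated data. Genes were named where they passed the test, were among the 15 largest differences in each direction without overlap and at an unadjusted p under 0.05, had one of the 5 smallest p-values in a list or family, or were AT3G12730, SWEET11, SWEET13, LBD16, EXO, AT1G21326 and AT2G32880. SWEET13 lies below the minimum signal. The members and lists were chosen with earlier results of these data known. Of 16 lists and 29 families, 52 entries were dropped because a name pattern had met another gene, and 9 families were added after values were seen: beta-glucosidases, defensin-like peptides, glycosyl hydrolase family 9, serine carboxypeptidase-like, trichome birefringence-like and calmodulin-like proteins, starch breakdown, DNA repair and the plastid genome. The epidermis list and the DOF, lipid transfer protein, cyclin, cytosolic ribosomal protein and mitochondrion-encoded families had 0 members. For the mitochondrion-encoded family the pattern matched 0 loci of the gene table, so mitochondrial transcripts were not examined as a family.

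Alternatives were another normalization, array weights, no intensity trend, a robust fit, a 1.5-fold minimum change, the replicate block, the 6 arrays alone, other signal minima and leaving out each sample. Replicate numbers were not taken as pairs in the main fit.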

Additional observations from a re-analysis of the deposited data

How the results depend on the processing

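None of the 113 genes recomputed changed its direction under any of the alternatives run, but that outcome was largely fixed in advance. The fits that changed only the variance model, the probe sets tested, the VISUAL samples, the replicate block or the minimum change keep the same difference of group means. Many of the genes were also chosen for values without overlap, which leaving out 1 sample cannot reverse. The number of members called, 3 at an adjusted p under 0.05, was 342 with array weights, 129 with probe sets below the minimum signal left out of the test, 18 with median centring, 18 with quantile normalization, and 0 without an intensity trend. Testing for a change beyond 1.5-fold gave 0 calls and 125 members at an unadjusted p under 0.05, where the main test had 1709. The 6 CC-S and CC-M arrays alone gave 3 calls, all higher in CC-S and none of them among the 3 of the main test, and the robust fit gave the same 3 members as the main test. A threshold of 0.10, chosen after seeing the data, gave 194. Leaving out 1 sample in turn gave 0 to 137 calls, 137 without CC-S replicate 5 3 without CC-M replicate 3, of which 1 was shared with the main test, and 1 or 0 without any of CC-S replicates 3 and 4, CC-M replicates 4 and 5 and the VISUAL samples. It gave 1093 to 1907 members at an unadjusted p under 0.05, the lowest without CC-S replicate 4, and 107 to 260 members with at least 2-fold differences and no overlap, where there were 123 with all samples, 260 without CC-S replicate 5 and 235 without CC-M replicate 3. The cause of these shifts was not tested. The samples of CC-S and CC-M with the same replicate number deviated together for numbers 3 and 5 (r = 0.408 and 0.407 over members) and not for number 4 (-0.053). For numbers 3, 4 and 5, r was -0.055, 0.132 and 0.144 between CC-S and VISUAL. Between CC-M and VISUAL it was 0.09, 0.155 and 0.155. Across different numbers r ran from -0.453 to 0.163. The numbers were not taken as pairs in the main fit. With the replicate block 4 members were called, of which 2 were shared with the main test and EXO was not, and 1856 had an unadjusted p under 0.05. Quantile normalization and median centring moved the median over all probe sets by less than 0.01. Signal limited the precision, with a median SE of 0.168 in the dimmest 2441 members and 0.093 in the brightest 2440.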

Other observations

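The families in this paragraph and the next were chosen after values were seen, so their counts are a description, beside 8.72% of members higher and 8.79% lower at an unadjusted p under 0.05. The beta-glucosidases, which cut glucose from stored conjugates such as glucosinolates and lignin precursors, were mostly lower in CC-S. Of 12 members 0 were higher and 7 lower at an unadjusted p under 0.05, with a median of -0.46, and 0 passed the adjusted test in limma. BGLU28 had log2 signals of 6.39, 7.04 and 8.69 in CC-S, 9.30, 9.37 and 9.01 in CC-M and 11.7, 11.2 and 11.5 in VISUAL. It stood at 3 levels, with CC-S replicate 5 near CC-M, and the difference was -1.85 (SE 0.481, adjusted p = 0.147; without CC-S replicate 5, adjusted p = 0.00986). BGLU45 and BGLU46, known for lignin precursor glucosides, differed by -1.80 and -1.04 (adjusted p = 0.146 and 0.338). BGLU16, BGLU33, BGLU40 and BGLU25 differed by -0.92, -0.87, -0.57 and -0.34. BGLU16, BGLU40 and BGLU46 were highest in CC-M, while BGLU28, BGLU33, BGLU45 and BGLU25 had their highest mean in VISUAL.

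Of 8 members on DNA repair and recombination 3 were higher and 0 lower at an unadjusted p under 0.05, with a median of 0.19. BRCA2B, a partner of the strand exchange protein in homologous recombination, differed by 0.87 (adjusted p = 0.246), the ligase ATLIG4 by 0.34 and the helicase RECQ4B by 0.33. The 4 members grouped by name under starch breakdown differed in both directions, and their part in starch breakdown in these cotyledons was not tested. AT4G24450, a gene of the glucan water dikinase kind, had means of 7.81, 6.67 and 5.29 in CC-S, CC-M and VISUAL and a difference of 1.15 (adjusted p = 0.111), and the glucanotransferase gene DPE1 differed by 0.69 (adjusted p = 0.184), while AMY1 was lower by 1.84 as given above. Among 10 defensin-like members 3 were higher and 1 lower at an unadjusted p under 0.05. PDF1.4 differed by 1.39 (adjusted p = 0.0532), LCR68 by 1.19 (adjusted p = 0.197), LCR69 by 0.63 (adjusted p = 0.142) and PDF2.1, whose CC-S mean of 3.88 lay below the minimum signal, by -0.92 (adjusted p = 0.225). Without CC-S replicate 5 the adjusted p of PDF1.4 was 0.0315.

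The remaining families held few members with an unadjusted p under 0.05. Of 8 members of glycosyl hydrolase family 9, 2 were higher and 1 lower at an unadjusted p under 0.05, GH9C2 and GH9A3 (0.53) against GH9B17 (-0.74). The counts were 1 higher and 2 lower among 14 serine carboxypeptidase-like members, with SCPL45 at 1.24 (adjusted p = 0.0648; without CC-S replicate 5, 0.0475), 3 and 1 among 16 trichome birefringence-like members, and 0 and 1 among 3 calmodulin-like members, with CML41 at -0.96. Of 8 glutathione transferases 1 was higher (GSTF3, 0.71) and 1 lower (GSTU18, -0.76). All 5 members on ribosome biogenesis were below 0, with AT5G14520 at -0.49 (adjusted p = 0.104) the 1 past an unadjusted p of 0.05.

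Some genes outside every list, named after their values were seen, had adjusted p-values between 0.05 and 0.10. bZIP44, a transcription factor, differed by 1.4 (adjusted p = 0.0532). ALDH6B2 and ETFQO, mitochondrial enzymes of branched-chain amino acid breakdown, were higher in CC-S by 0.59 and 0.47 (adjusted p = 0.0532 and 0.0648). CSLC04, a synthase of the xyloglucan backbone, differed by -0.83 (adjusted p = 0.0648). Without CC-S replicate 5 the adjusted p-values of bZIP44, ALDH6B2 and ETFQO were 0.0325, 0.0185 and 0.0347.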
